A study of Arabidopsis thaliana and Nicotiana benthamiana and Solanum lycopersicum with 20 samples.

Results

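GLK1 and GLK2 (GOLDEN2-LIKE) are related transcription factors (TFs) of the GARP family, and their binding in tobacco leaves was compared here over 4 of the 20 ChIP-seq libraries of the series. Together the 4 libraries held 123830 of the 480034 summits deposited for all species. Each TF carried an HA tag and was expressed transiently, by agroinfiltration, in leaves of Nicotiana benthamiana from the vector pGWB14, and anti-HA antibody pulled down its chromatin. The NbGLK1 libraries carried the gene that the labels call Niben101Scf09774g03004, and the NbGLK2 libraries the gene that they call Niben101Scf06721g00011. The study's construct list gives these genes as Niben251Chr11g0028007 and Niben251Chr10g0202013. Tobacco is an allotetraploid with more than one copy of GLK1 and of GLK2, and 1 copy of each was expressed here. Both TFs had 2 biological replicates from separate plants. The leaves kept their own GLK genes, so the tagged protein added to the endogenous one, and neither group is a loss or a native level of GLK. The control behind the fold changes is not identified in the sources used here.

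GLKs activate nuclear genes for chlorophyll synthesis, light harvesting and the photosystems, and so drive the development of chloroplasts from proplastids. Diploid flowering plants mostly carry a pair of GLK genes, and in Arabidopsis the loss of both makes leaves pale green while the loss of one has little effect. Whether both proteins sit at the same places with the same strength is the question that the 4 libraries address. Each TF came from its own construct, so a difference between the TFs cannot be told apart from one in tagged protein level or ChIP enrichment. The study names both among the limits on comparing ChIP-seq experiments.

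The GLK1 libraries held 22032 summits in replicate 1 and 21383 in replicate 2, and the GLK2 libraries 33237 and 47178. A summit is the highest point of a peak, and its strength is the fold change over the control at that base, as called by the authors for each library. A summit counted as reproducible when its 150 bp window overlapped that of a summit of the other replicate. In the GLK1 libraries 68.7% (95% Wilson interval 68.1% to 69.3%) and 71.0% (70.4% to 71.6%) of summits were reproducible. In the GLK2 libraries 64.4% (63.8% to 64.9%) and 47.5% (47.0% to 47.9%) were. GLK2 replicate 2 thus had the longest list and the lowest reproducible share. The reproducible summits themselves numbered 21390 and 22392 in the GLK2 replicates, and the share divides them by lists of unlike length. The lower share is thus not a second trait apart from the longer list. The median fold change of the 4 lists lay between 6.12 and 6.55. Intervals cover counting error only. The study states the read depth of tobacco libraries as a range and not for each library, and the part of depth in the length of a list was not tested.

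The strongest summit of each TF lay in the interval named by its own gene. Tobacco gene IDs of this genome carry the chromosome and a number that was read here as the position in steps of 100 kb. This reading was made after the values were seen. Over the 70 TF genes that the study lists as tobacco targets, the interval so read held a place common to both TFs for 64 (91.4%), whereas 24.7% of all 29377 intervals of the 19 chromosomes did.

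For NbGLK1 the ID points to 2.8 to 2.9 Mb of chromosome 11. The GLK1 lists both had their first-ranked summit there, with fold changes of 804 at 2813541 and 828 at 2813525. Close by, a second place had fold changes of 493 and 569 (ranks 7 and 5), another 272 and 299.5 (ranks 21 and 20) and one more 165 and 192 (ranks 66 and 59). Neither GLK2 library had a summit at any of these 4 places, and the nearest GLK2 summits to the first were 21042 and 20994 bp away. Those GLK2 summits, with fold changes of 6.25 and 4.92, were of ordinary strength.

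For NbGLK2 the ID points to 20.2 to 20.3 Mb of chromosome 10. The GLK2 lists both had their first-ranked summit there, with fold changes of 853 at 20258089 and 874 at 20258103. A second place had fold changes of 658 and 529 (ranks 2 and 5), another 287 and 245 (ranks 8 and 41) and one more 205 and 159 (ranks 27 and 106). A further summit with a fold change of 198 was listed in replicate 2 alone. Neither GLK1 library had a summit at these places, and the nearest GLK1 summits to the first were 20447 and 20130 bp away. In each interval the lists of both TFs thus shared weak summits and differed in the strong ones. Reads from the introduced construct and reads from the endogenous gene cannot be told apart in a peak list.

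**Figure D1:**
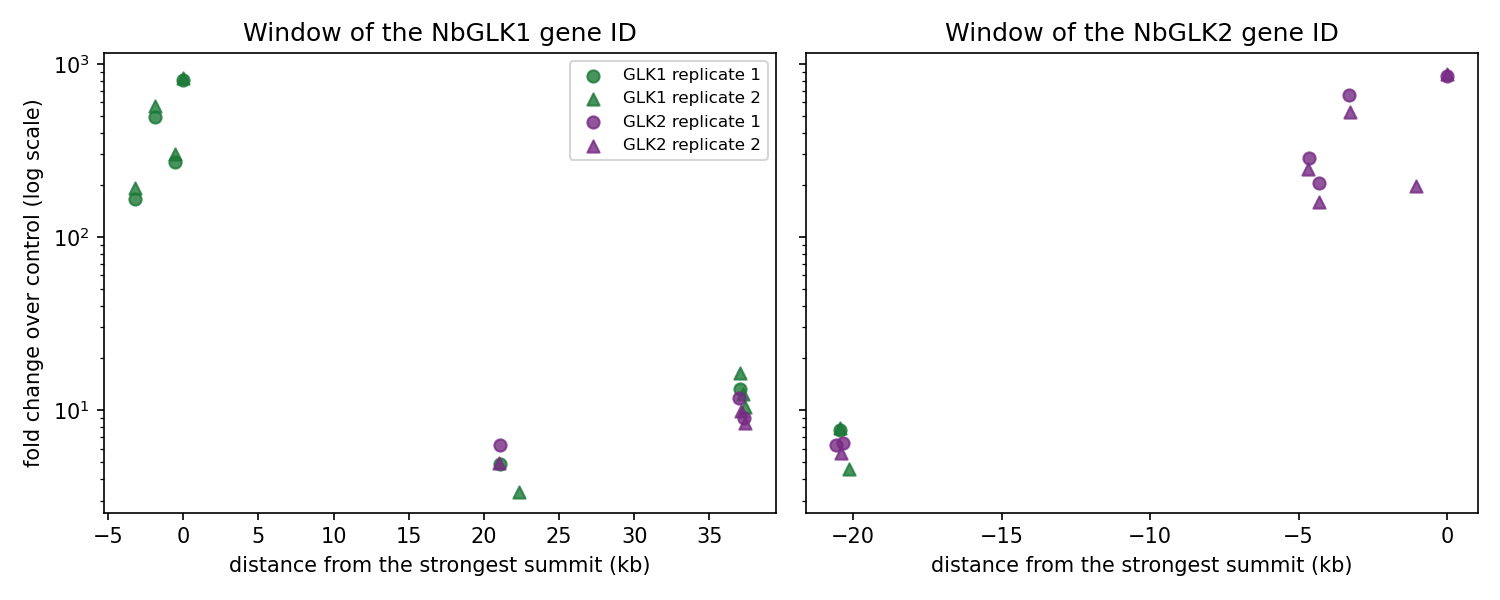
Fold change over control (log scale) of every summit in the 100 kb interval of each GLK gene ID, against the distance in kb from the strongest summit there, for GLK1 (green) and GLK2 (purple) with circles for replicate 1 and triangles for replicate 2. In the NbGLK1 interval only GLK1 summits exceed 100, and in the NbGLK2 interval only GLK2 summits do, while weaker summits of both TFs lie about 20 kb or more away.

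These 8 places were also the strongest of all places that one TF had and the other lacked. A place is a pair of summits, one from each replicate of a TF, that are nearest to each other with overlapping windows. Among the GLK1 places with a mean rank of up to 100, 4 of 96 had no GLK2 summit in either library, and among the GLK2 places 4 of 89 had no GLK1 summit. All 4 of each TF were those in the interval of its own gene. The next GLK1 place without a GLK2 summit was on chromosome 1 at 8333210. Its fold changes were 59.0 and 63.5 and its mean rank 353, and GLK2 summits lay 1256 and 1204 bp from it. The next GLK2 place without a GLK1 summit was on chromosome 9 at 128250890. Its fold changes were 76.4 and 94.0 and its mean rank 260. GLK1 summits lay 174 and 173 bp from that place, just past the limit for a shared place.

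Of 14961 GLK1 places, 9853 were matched one to one with a GLK2 place (65.9%, interval 65.1% to 66.6%). Of 20936 GLK2 places, the same 9853 made up 47.1% (46.4% to 47.7%). The order of these shares followed the length of the lists. With every list held to its 21383 strongest summits, 51.2% of GLK1 places had a GLK2 place and 61.4% of GLK2 places had a GLK1 place. Without the summits in the GLK intervals, an alternative added after seeing the data, the shares were 65.9% and 47.1%.

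A summit of the other TF was often present where no matched place was. GLK2 summits from both libraries lay at 9831 GLK1 places, from 1 library at 3188 and from neither at 1942 (13.0%). GLK1 summits from both libraries lay at 9836 GLK2 places, from 1 library at 3276 and from neither at 7824 (37.4%). The places with no summit of the other TF were weak, with median fold changes of 5.56 and 5.89 in the GLK1 replicates and of 5.73 and 6.32 in the GLK2 replicates. At the matched places the medians were 9.01 and 9.82 with GLK1, against 10.4 and 11.2 with GLK2. Of the 1942 GLK1 places, 50.8% had a GLK2 summit within 1 kb and 25.7% had none within 10 kb. Of the 7824 GLK2 places, 24.1% had a GLK1 summit within 1 kb and 55.6% had none within 10 kb.

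The other TF was missing more often at weak places than at strong ones. Beyond the own-gene intervals, 2 GLK1 places and 31 GLK2 places with a mean rank of up to 1000 had no summit of the other TF. Among places with a mean rank between 500 and 1000, 0.204% of 489 GLK1 places (interval 0.0361% to 1.15%) and 6.25% of 432 GLK2 places (4.33% to 8.94%) were of this kind. Among places with a mean rank over 10000, the shares were 23.5% of 5911 for GLK1 and 50.1% of 13121 for GLK2. This open bin reaches deeper in the longer GLK2 lists, so the 2 shares are not for like ranks. Several of the strong GLK2 places lay far from any GLK1 summit. One, on chromosome 7 at 95409772, reached 43.8 and 165-fold over the control, and the nearest GLK1 summits were 31351 and 31335 bp away. Another, on chromosome 10 at 36076561, had 52.6 and 65.2, with the nearest GLK1 summits 157550 and 157537 bp away. These were chosen for description after their values were seen. Since both GLK2 lists were longer than both GLK1 lists, absence from a GLK1 list and a weaker GLK1 signal cannot be told apart.

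**Figure D2:**
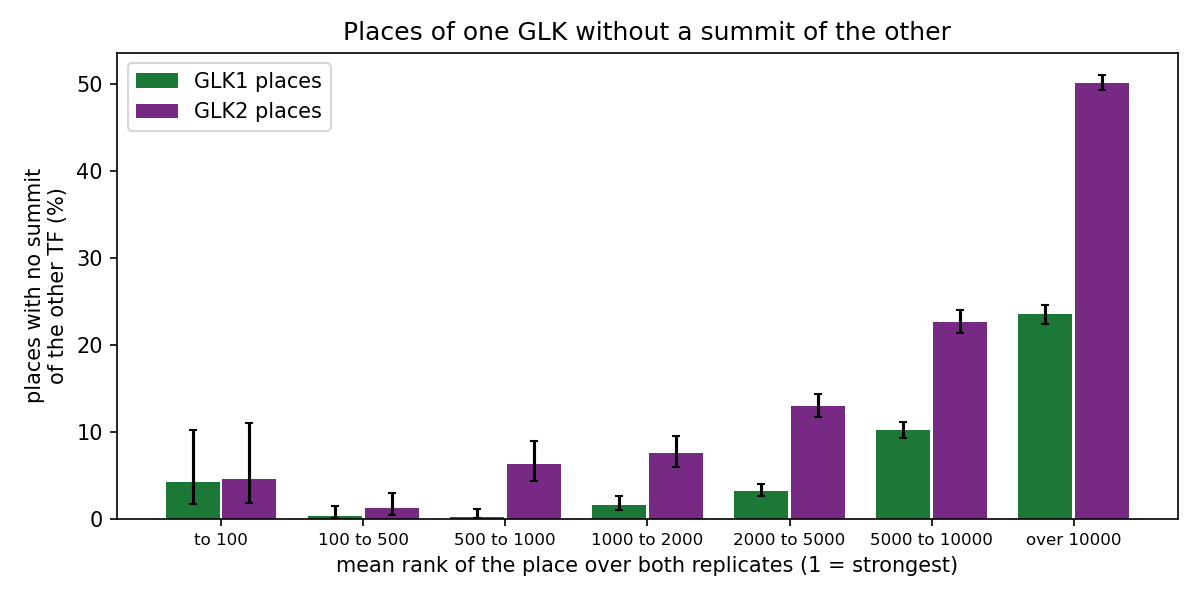
Share of GLK1 places (green, left) without a GLK2 summit and of GLK2 places (purple, right) without a GLK1 summit, by the mean rank of the place over both replicates, with 95% Wilson intervals as error bars. The share is 0.204% for GLK1 and 6.25% for GLK2 at mean ranks of 500 to 1000, and 23.5% and 50.1% past 10000. The last bin is open and reaches deeper in the longer GLK2 lists. In the first bin every such place lies in the interval of the TF's own gene.

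The strongest shared place was on chromosome 10 at 26196668. It had fold changes of 787 and 805 in the GLK1 libraries and 487 and 825 in the GLK2 libraries, and ranked 2, 2, 3 and 2. The place on chromosome 2 at 53217430 had 526 and 575 with GLK1, against 317 and 577 with GLK2. That on chromosome 4 at 96391449 had 496 and 515 with GLK1, against 431 and 550 with GLK2. In each of these 3 places the fold changes of both TFs overlapped as deposited, whereas after centring both GLK1 values lay above both GLK2 values.

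The remaining pair among the 5 best-ranked common places lay close together on chromosome 7. The place at 124441288 had 519 and 599 with GLK1, against 411 and 333 with GLK2, and that at 124438712 had 513 and 547 with GLK1, against 381 and 373 with GLK2. GLK1 was above GLK2 in every library at both. They belonged to a run of 5 common places within 5.45 kb, the run being defined by gaps of at most 5 kb. Of 8944 such runs, 8153 held 1 place, 696 held 2 and 5 held 5.

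Fold changes of GLK1 and GLK2 were related across the 9853 common places. Spearman's rho between a GLK1 and a GLK2 library lay between 0.578 and 0.620 (Pearson's r of the log2 values 0.694 to 0.730). The GLK1 replicates had a rho of 0.892 and the GLK2 replicates of 0.732. Over the 720 places with a mean rank of up to 1000, rho was 0.969 between the GLK1 replicates, 0.717 between the GLK2 replicates and 0.436 to 0.471 between the TFs. The places share their libraries, so these values are descriptions. Of the 100 strongest summits of a list, between 53% and 61% lay within the 100 strongest of a list of the other TF. Between replicates of 1 TF this share was 72% to 94%.

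Summits of GLK1 and GLK2 at a common place were a median of 35 bp apart. These are distances between the middles of the replicate summits. Between single libraries, a GLK1 and a GLK2 summit of a common place lay a median of 37 to 41 bp apart, the GLK1 replicates 23 bp and the GLK2 replicates 29 bp. The distance between the TFs was thus 8 to 12 bp above that between the GLK2 replicates. Replicate summits were paired as nearest to each other, whereas the TFs were matched through the middles of these pairs. The distances are therefore not alike, and the part of the matching in this excess was not tested. Over the 720 strongest places, single libraries of GLK1 and GLK2 were a median of 18 to 23 bp apart, the GLK1 replicates 10 bp and the GLK2 replicates 12 bp.

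The log2 fold changes of common places were set on a common scale by centring each library on its median, which was 3.17 and 3.30 in the GLK1 libraries and 3.37 and 3.49 in the GLK2 libraries. The limma fit over all 9853 places, with a Benjamini-Hochberg adjusted p of at most 0.05, called 1292 places (13.1%). GLK1 was higher at 614 (6.23%) and GLK2 at 678 (6.88%). Without the centring, which moves the median difference by about 0.2 to -0.14, the fit called 268 places higher for GLK1 and 820 higher for GLK2. At 83.3% of places the log2 difference was below 1 in either direction, and the smallest called differences were 0.69 and -0.82. An exact permutation test of a single place cannot go below 0.333 with 2 libraries a group.

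The calls turned on the GLK2 replicates, whose log2 values differed by a median of 0.45 within a place, against 0.21 for the GLK1 replicates. The fit called 171 places without GLK1 replicate 1 and 186 without GLK1 replicate 2, but 3735 without GLK2 replicate 1 and 3421 without GLK2 replicate 2. A lone library is assumed in these fits to vary as the other TF's pair does. Both GLK1 libraries lay above both GLK2 libraries, after centring, at 3029 places (30.7%) and below both at 2596 (26.3%). The share called higher for GLK1 fell from each bin of strength to the next weaker one. The share called higher for GLK2 was largest, 12.3%, at mean ranks of 1000 to 2000. Among the 362 common places with a mean rank of up to 500, GLK1 was higher at 68 (18.8%) and GLK2 at 27 (7.46%), and among the 2839 between ranks 5000 and 10000 GLK1 was higher at 131 (4.61%) and GLK2 at 257 (9.05%). Among the 3721 weakest, past a mean rank of 10000, GLK1 was higher at 161 (4.33%) and GLK2 at 73 (1.96%). The bins average ranks over lists of unequal length, and GLK2 ranks run further. The last bin thus favours places that are weak in GLK2, so calls higher for GLK1 are partly built into it.

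**Figure D3:**
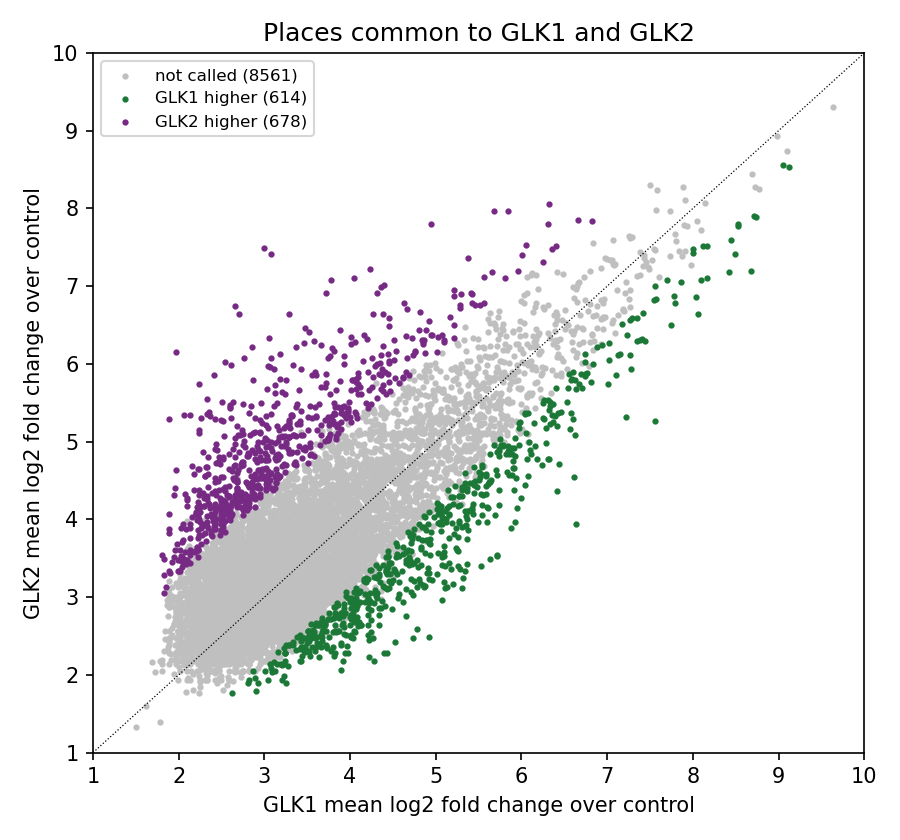
Mean log2 fold change over control of 9853 common places in the GLK1 libraries (horizontal) and the GLK2 libraries (vertical), with the dotted line of equal values. The 614 places called higher for GLK1 (green) reach the strongest places at the upper right, and the 678 called higher for GLK2 (purple) extend further from the line at a GLK1 value of 2 to 5.

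The largest differences were on the GLK2 side. These places were picked by their size after the values were seen and are given with no test. At 68521808 on chromosome 15 fold changes were 9.72 and 6.55 with GLK1, against 126 and 259 with GLK2. That on chromosome 7 at 115833673 had 9.02 and 7.86 with GLK1, against 116 and 249 with GLK2. On the log2 scale, after centring, GLK1 minus GLK2 was -4.30 and -4.14. GLK2 replicate 2 was above GLK2 replicate 1 in both, and neither GLK1 value came near a GLK2 value.

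The largest difference on the GLK1 side was 2.89, on chromosome 8 at 72507974, with fold changes of 94.99 and 104 with GLK1, against 31.0 and 7.67 with GLK2. On the log2 scale the GLK2 values there differed by more than GLK2 replicate 1 did from GLK1. The place on chromosome 1 at 132209808 had 29.9 and 30.8 with GLK1, against 5.56 and 5.64 with GLK2. Its replicates lay close together in both TFs.

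Ranks within a list need no shared scale. A site was taken as ranked higher for a TF when every library of that TF placed it at least 25 percentile points nearer the top of its list than every library of the other. By this rule 118 common places (1.2%) ranked higher for GLK1 and 729 (7.4%) for GLK2. The lists were of unequal length, and with all lists held to 21383 summits the counts were 289 for GLK1 and 294 for GLK2. Ranking among the common places alone gave 459 and 607. The rule chose these sites on their values, so they are described with no test. Just inside it the smallest gaps were 25.2 points for GLK1 and 25.04 points for GLK2, and just outside it the largest were 24.98 and 24.99 points.

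The sites ranked higher for GLK1 were of middle strength, which the rule partly builds in. Their median fold changes were 10.4 and 12.1 in the GLK1 libraries and 5.45 and 4.92 in the GLK2 libraries. None of the 118 stood among the 1000 strongest summits of both GLK1 lists. The widest gap, 63.4 points, was on chromosome 12 at 80860643, with fold changes of 16.0 and 13.8 with GLK1, against 4.17 and 4.22 with GLK2. The next were on chromosome 13 at 1339010, with 9.90 and 9.21 with GLK1, against 3.65 and 3.76 with GLK2, and on chromosome 5 at 119123602, with 18.1 and 21.0 with GLK1, against 4.86 and 4.22 with GLK2. Over the 10 sites of widest gap, no GLK1 value fell below 7.91 and no GLK2 value exceeded 5.24.

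Of the sites ranked higher for GLK1, 63 of 118 stood among the 5000 strongest summits of both GLK1 lists, and of those ranked higher for GLK2, 254 of 729 did so in both GLK2 lists. At the sites ranked higher for GLK2 the median fold changes were 4.86 and 5.39 in the GLK1 libraries and 12.2 and 12.6 in the GLK2 libraries, and 20 of the 729 stood among the 1000 strongest summits of both GLK2 lists. The widest gap, 87.6 points, was on chromosome 17 at 92754477, with fold changes of 3.53 and 3.86 with GLK1, against 39.0 and 39.1 with GLK2. There the GLK1 summits stood at 90.1% and 95.5% of their lists and the GLK2 summits at 2.43% and 2.51%. On chromosome 8 at 68140945 the values were 4.17 and 3.65 with GLK1, against 52.1 and 97.7 with GLK2. On chromosome 1 at 124901806 they were 4.0 and 4.38 with GLK1, against 25.6 and 63.9 with GLK2. Over the 10 sites of widest gap no GLK1 value exceeded 4.38 and no GLK2 value fell below 11.1. The sites ranked higher for GLK1 lay on all 19 chromosomes with 1 to 12 on each, and those ranked higher for GLK2 with 25 to 50 on each.

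Chlorophyll is made from glutamate through a shared tetrapyrrole pathway, whose magnesium branch begins at magnesium chelatase. The study lists 51 tobacco copies of 18 genes of this pathway and gives a binding signal for 17 of them. That signal equals the mean fold change of both GLK1 replicates, and through it 15 copies were tied to 1 GLK1 place each. All 15 were common places. The list was chosen by the study on these samples, so binding at its members is no independent result. No place could be tied to any copy of GSA, HEMD, HEMF, HEMG, GUN4, CHLD, CHLI, CHLM, DVR or CHLG.

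No tied place at the early steps passed the test between the TFs. HEMA, the glutamyl-tRNA reductase held to be rate-limiting for the pathway, had fold changes of 128 and 145 in the GLK1 libraries and 57.0 and 125 in the GLK2 libraries, on chromosome 18 at 118017378. GLK1 was above GLK2 in every library, and the difference of 0.89 ± 0.31 (log2, SE) did not pass the limma fit (adjusted p = 0.0800). HEMB, the dehydratase that joins aminolevulinate into porphobilinogen, had 15.4 and 22.2 with GLK1, against 26.4 and 24.7 with GLK2 on chromosome 3 at 70352326. It was the weakest place of the pathway for GLK1, and its centred values overlapped.

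HEMC, porphobilinogen deaminase, had 113 and 135 with GLK1, against 77.1 and 124 with GLK2 on chromosome 10 at 86744410. Of the 3 HEMC copies with a binding signal only this 1 could be tied to a place, so the others were not compared. HEME, uroporphyrinogen decarboxylase, was bound at 2 copies that leaned opposite ways. The copy on chromosome 8 at 59510218 had 36.8 and 31.4 with GLK1, against 43.8 and 56.9 with GLK2, and that on chromosome 15 at 87030978 had 43.1 and 51.8 with GLK1, against 38.5 and 30.9 with GLK2. Neither copy passed the limma fit, with adjusted p of 0.462 and 0.160.

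In the magnesium branch, CHLH, the large subunit of magnesium chelatase, had 68.8 and 76.0 with GLK1, against 57.0 and 100.5 with GLK2 on chromosome 5 at 56642667, and its groups overlapped. CRD1, the cyclase that forms the fifth ring, had 77.1 and 91.7 with GLK1, against 73.0 and 84.3 with GLK2 on chromosome 4 at 27788308. Its copy on chromosome 6 at 35314432 had 59.8 and 82.4 with GLK1, against 82.1 and 125 with GLK2. Differences at the 3 places lay between -0.33 and 0.30 (log2) and none passed the fit.

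The late steps held the strongest places and all 3 that passed the limma fit. Early and late steps were not tested against each other. HEMA, at 0.89 (log2), differed by nearly as much as 1 of these 3, at 0.96. CAO, the oxygenase that turns chlorophyllide a into chlorophyllide b, had fold changes of 341 and 382 with GLK1, against 148 and 196 with GLK2 at its copy on chromosome 5 at 94017384. GLK1 was higher there by 1.28 ± 0.21 (log2, SE; limma adjusted p = 0.00316). The CAO copy on chromosome 11 at 109106297 had 237 and 268 with GLK1, against 107 and 222 with GLK2, with an adjusted p of 0.0526 in the limma fit. The CAO copy on chromosome 13 at 95947419 had 225 and 253 with GLK1, against 167 and 293 with GLK2, and its groups overlapped.

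POR, the light-dependent reductase of protochlorophyllide, was bound at 4 copies. PORA, PORB and PORC are listed together, and which of them a copy belongs to was not resolved. That on chromosome 13 at 129565163 had 144 and 185 with GLK1, against 104 and 88.5 with GLK2 and was higher for GLK1 by 0.96 ± 0.24 (log2, SE; limma adjusted p = 0.0234). That on chromosome 3 at 43412212 had 27.1 and 23.7 with GLK1, against 44.7 and 101 with GLK2 and was lower for GLK1, with a difference of -1.21 ± 0.35 (limma adjusted p = 0.0416). The copies on chromosome 1 at 5434061, with 225 and 257 with GLK1, against 142 and 214 with GLK2, and on chromosome 11 at 10138295, with 270.2 and 278 with GLK1, against 172 and 258 with GLK2, did not pass it. Copies within this pooled group thus differed in which TF was stronger.

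The 15 places were reached through their GLK1 fold change alone, so a lean toward GLK1 is partly built into their choice and the values over them are a description. Across them the median log2 difference of GLK1 minus GLK2 was 0.54, against 0.06 over all common places. It was positive at 11, and the fit called 2 higher for GLK1 and 1 lower, beside 6.23% and 6.88% of all common places. Without GLK2 replicate 1 the median was 0.26. On the scale of rank percentiles the median difference was -0.016 points, toward GLK2. Percentiles divide a rank by the length of its list, and the GLK2 lists were longer. The median ranks themselves were 116 and 114 in the GLK1 libraries and 229 and 165 in the GLK2 libraries. Of these 15 places, 11 stood among the 1000 strongest summits of every list. The call at CAO on chromosome 5 was lost without either GLK1 replicate (limma adjusted p = 0.183 and 0.203), while its difference stayed at 1.30 and 1.26. Also lost were the calls at POR (0.264 and 0.463 on chromosome 3, 0.373 and 0.547 on chromosome 13), and POR on chromosome 13 without centring (0.106). Leaving out a GLK2 replicate instead gained calls, and HEMA, the HEME copy on chromosome 15, the POR copies on chromosomes 1 and 11 and the CAO copy on chromosome 11 passed without either GLK2 replicate. Over the 15 places and these alternatives, 16 calls were gained and 7 lost.

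**Figure D4:**
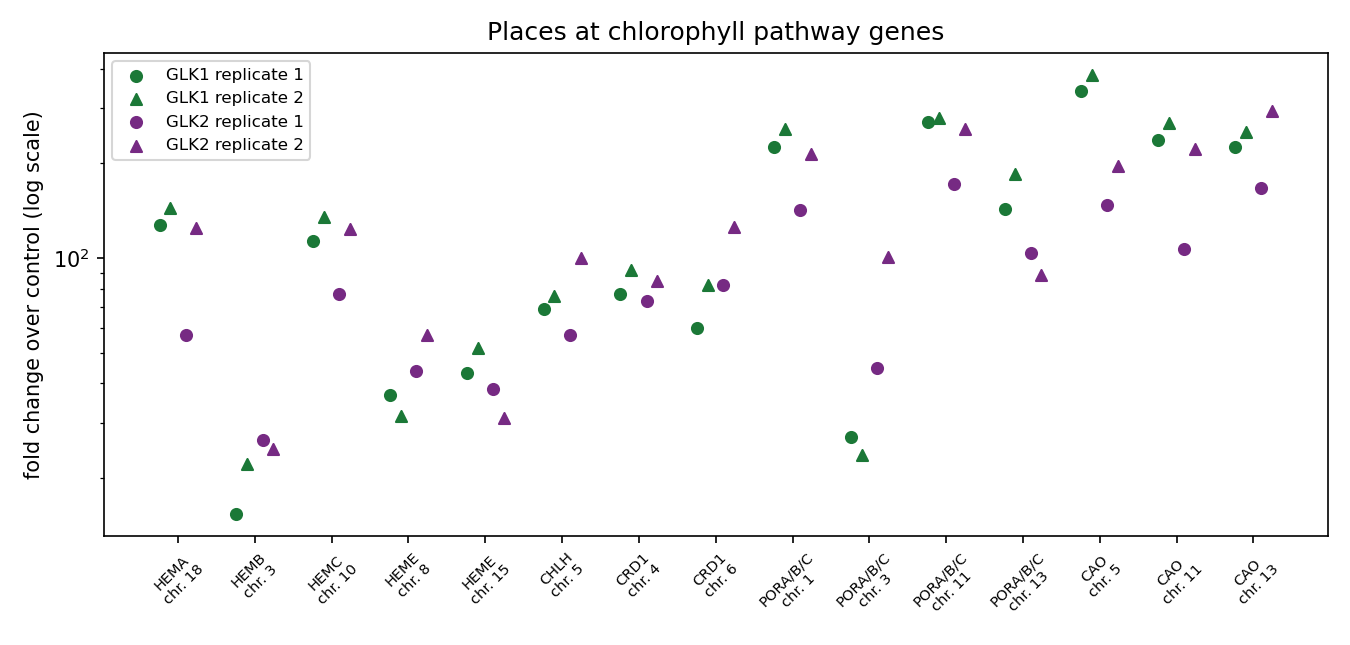
Fold change over control (log scale) at 15 places tied to chlorophyll pathway genes, ordered from early to late steps, for GLK1 (green, left) and GLK2 (purple, right), with circles for replicate 1 and triangles for replicate 2. The CAO copy on chromosome 5 has 341 and 382 for GLK1 over 148 and 196 for GLK2, and the POR copy on chromosome 3 has the reverse order.

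The study also sorts its tobacco target genes into those that are targets in other species and those of tobacco alone, and 282 places could be tied to 1 class each by the same value. Of 474 values of target genes, 27 matched no place and 148 matched several, and these were left out. Whether the places left out differed in strength was not tested. Both classes were chosen on these samples, and a place enters them through its GLK1 fold change alone. A lean toward GLK1 is therefore partly built into the choice, and the values that follow are descriptions. At the 134 places of genes shared with other species, the median log2 difference was 0.44, and the limma fit called 26 (19.4%) higher for GLK1 and 3 (2.24%) higher for GLK2. At the 148 places of tobacco alone the median was 0.10, with 15 (10.1%) higher for GLK1 and 14 (9.46%) higher for GLK2. The classes differed in strength, with median fold changes of 66.7 and 73.9 in GLK1 and 58.0 and 74.5 in GLK2 for the shared genes, and 28.5 and 32.1 in GLK1 and 29.2 and 35.1 in GLK2 for tobacco alone. At the 720 strongest common places the median was 0.22, with 115 (16.0%) higher for GLK1 and 67 (9.31%) higher for GLK2. The part of strength in the difference between the classes was not tested.

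Of the 70 TF genes listed as targets, 27 had exactly 1 common place in the interval read from their ID. The limma fit called 1 of these places (3.70%) higher for GLK1 and 3 (11.1%) higher for GLK2, beside 6.23% and 6.88% of all common places, and at this number of places the shares are near that background. Their median log2 difference was -0.19. At the MYB-related gene Niben251Chr06g0654020 the place at 65468724 had 79.9 and 85.1 with GLK1, against 54.9 and 36.5 with GLK2 (1.08 ± 0.29, limma adjusted p = 0.0313). At the BES1 gene Niben251Chr16g0191008, of the family that carries brassinosteroid responses, the place at 19101047 had 9.72 and 9.60 with GLK1, against 31.3 and 28.8 with GLK2 (-1.44 ± 0.32, limma adjusted p = 0.0125). Niben251Chr05g1256010, a gene of the GARP family to which GLKs belong, had 11.8 and 14.0 with GLK1, against 17.3 and 30.9 with GLK2 at 125675017, and its difference did not pass (limma adjusted p = 0.237). A place in an interval of 100 kb need not belong to the gene whose ID points there.

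Both TFs had their places spread over the 19 chromosomes in similar proportions. Chromosome 7 held the most, 1007 GLK1 places (6.73%) and 1384 GLK2 places (6.61%), and chromosome 18 the fewest GLK1 places, 602 (4.02%), with 872 GLK2 places (4.17%). The 95% Wilson intervals of the GLK1 and GLK2 shares overlapped for each of the 20 sequences compared, the unplaced ones being pooled as 1. Between 63.0% and 68.3% of the GLK1 places of a chromosome were common, and between 44.9% and 49.6% of its GLK2 places. Places were as dense as 3.94 to 6.60 per Mb for GLK1 and 5.61 to 9.44 per Mb for GLK2. In the outer 10% at either end of the chromosomes lay 22.3% of GLK1 places and 22.0% of GLK2 places.

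The limma test of the shares called 15 of 20 sequences (75%), 8 higher for GLK1 and 7 higher for GLK2, with log2 differences between -0.06 and 0.13. Chromosome 8, for example, held 5.999 and 6.006% of the reproducible summits of the GLK1 libraries and 6.24 and 6.27% of those of the GLK2 libraries. Chromosome 4 held 5.603 and 5.605% in the GLK1 libraries and 5.395 and 5.399% in the GLK2 libraries. Reproducible summits are by definition shared by both replicates, so the replicates of a TF give nearly the same share and this spread is too small to serve as an error. With every deposited summit, where the lists are independent, the test called 5 of 20 (25%). Unplaced sequences held 1.10% of GLK1 places and 0.994% of GLK2 places. With every deposited summit the log2 difference in their share was 0.57, higher for GLK1 (limma adjusted p = 0.0272). The direction of the difference turned with a stricter limit on strength and with lists of equal length.

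**Figure D5:**
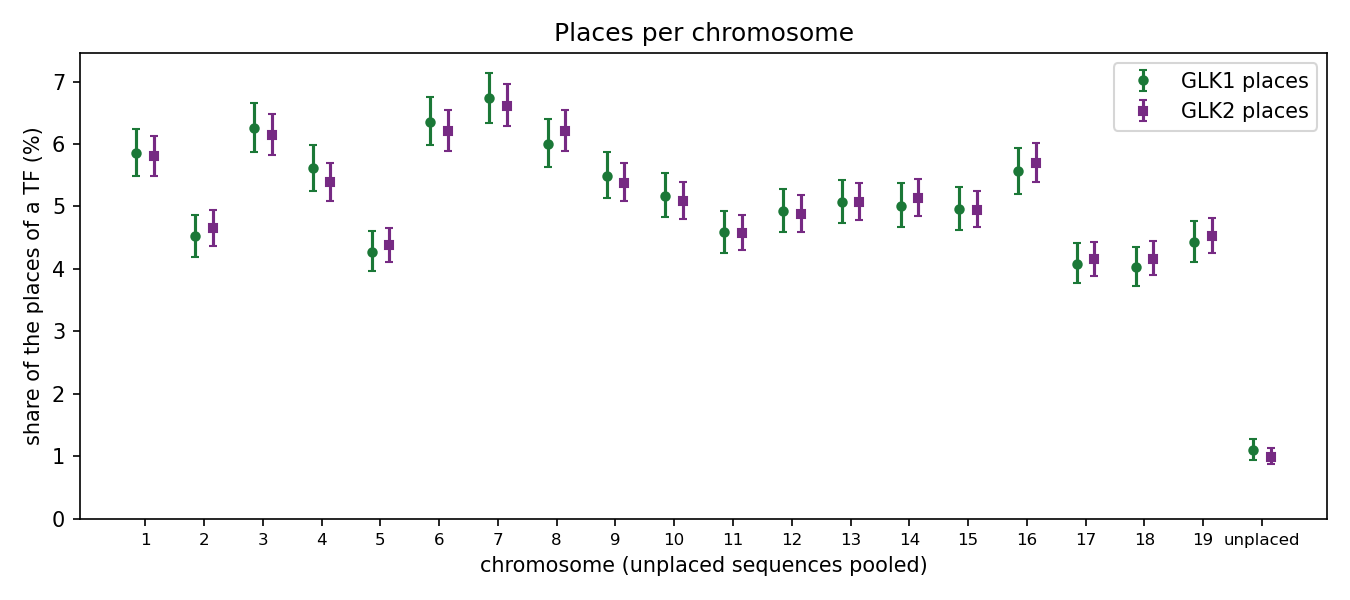
Share of all GLK1 places (green circles, left) and of all GLK2 places (purple squares, right) on each of 19 chromosomes and on the pooled unplaced sequences, in percent, with 95% Wilson intervals as error bars. The intervals of both TFs overlap on all 20 sequences.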

How the data were processed

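The authors mapped the reads to the Niben251 genome with Bowtie2 2.3.2, filtered them on mapping quality and took out duplicates (SAMtools). Each library then went through MACS2 2.2.1 peak calling. Reads that fit near-identical copies of this allotetraploid genome are lost by such a filter. The deposited lists give 1 line per summit, with the ratio (fold change over a control that is not identified) and −log10 of the p and q values. No read was counted here.

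Summits of the replicates of a TF were paired when nearest to each other with overlapping 150 bp windows (a place), and places of both TFs were paired likewise (a common place). Ratios were analysed as log2 values, centred on the median of the common places, with limma 3.58.1 (R 4.3.3) with a variance trend and Benjamini-Hochberg adjustment. Python 3.11.15 with numpy, pandas and scipy did the rest. The steps were tested on simulated data. P-values measure the spread between 2 libraries a group.

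The members, lists and tests were chosen with earlier results of these data known. Named places were the 5 common places of best mean rank, the 10 sites of widest rank gap in each direction, the 5 strongest places of each TF without the other, and the chlorophyll genes. These genes were to be joined by a signal equal to that of 1 summit. After the files were seen the signal proved to be the mean of both GLK1 replicates, and the join was changed to it, with a relative tolerance of 1e-05. Of 17 values 15 matched 1 place, 1 none and 1 several. The values not tied to 1 place were those of HEMC copies. Alternatives were other distances, limits on strength, list lengths, orders, scalings, the replicate block and leaving out each library. No tobacco genome sequence or annotation was used here.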

Additional observations from a re-analysis of the deposited data

How the results depend on the processing

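The share of GLK1 places with a GLK2 place, 65.9%, was 48.6% with summits at most 75 bp apart, 67.4% with a fold change and −log10 q of at least 5, 63.2% with the strongest summit of each region, 51.2% with lists of equal length and 51.3% to 77.0% without 1 library. The share of GLK2 places with a GLK1 place, 47.1%, was 38.1%, 49.0%, 47.8% and 61.4% under these 4 alternatives and 24.4% to 54.7% without 1 library. With 1 library left for a TF, all its summits counted, so the shares without a library compare lists of another length.

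Sites ranked higher for GLK1, 118, were 63 at 75 bp, 78 with the strongest summit of each region, 289 with lists of equal length, 459 with ranks among common places, 483 with a gap of 10 points, 11 with a gap of 50 points and 189 to 568 without 1 library. Sites ranked higher for GLK2, 729, were 345 at 75 bp, 294 with lists of equal length, 1931 and 104 with gaps of 10 and 50 points, and 1023 to 1347 without 1 library. Leaving out a library leaves fewer libraries to agree, which raises these counts by construction. The median rank correlation between the TFs, 0.600, was 0.660 at 75 bp, 0.622 with the strongest summit of each region and 0.583 to 0.615 without 1 library. The median distance of 35 bp was 25 bp at 75 bp, 30 bp with the limits of 5 and 33 bp with the strongest summit of each region.

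The limma fit of common places called 845 at 75 bp, where fewer places were tested, and 171 to 3735 without 1 library. Its other alternatives (no centring, quantile normalization, normal scores, −log10 q, no trend, limits of 5, strongest summits) called between 923 and 1339. The test of sequences called 5 with every deposited summit and 12 to 16 without 1 library. The log2 difference in the share on unplaced sequences, 0.13, was 0.57 with every deposited summit, -0.10 with the limits of 5 and -0.023 with lists of equal length. The cause of these reversals was not tested.

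The median over the chlorophyll loci, 0.54, lay between 0.26 and 0.65 without 1 library. It was -0.016 points on rank percentiles, which depend on the length of the lists. The difference at CHLH on chromosome 5, 0.13, was -0.066 without centring, -0.22 without GLK2 replicate 1 and 0.48 without GLK2 replicate 2, where it passed, and that at CAO on chromosome 13, 0.31, was -0.040 without GLK2 replicate 1. The differences of turned sign did not pass the test.

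Both TFs have replicate numbers 1 and 2, and no source says that a number marks a shared plant or day. The deviations of same-numbered libraries had a correlation of 0.01 over the common places, so the numbers were not taken as pairs. With the replicate block the fit called 1713 common places, 856 higher for GLK1 and 857 higher for GLK2, and 12 of 20 sequences, and the chlorophyll median was 0.54. Leaving out the GLK intervals, an alternative added after seeing the data as was the block for the chlorophyll loci, left 1290 calls.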
